A study of Caenorhabditis elegans with 2 samples.

Results

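The genes described here are 10 Caenorhabditis elegans genes that write or erase methylation of lysine 4 of histone H3 (H3K4). They were chosen by name, and all 10 were found among the 46739 genes of the count table. They are the methyltransferase genes set-2, set-16 and set-17, the genes wdr-5.1, ash-2 and rbbp-5 for core subunits of the methyltransferase complexes, and the demethylase genes spr-5, lsd-1, amx-1 and rbr-2. RNA was sequenced from gonads dissected from adult hermaphrodites a day after the L4 stage, as 1 library of N2 wild type (WT) and 1 library of YBT7. YBT7 carries deg-1(huj32), linc-20(huj2) and hujCf1, and its X chromosome is bisected: the ends of the chromosome, joined to each other, form a linear segment, and its middle forms the internal segment, which may be circular. It is a single engineered strain. The study's Illumina DNA sequencing also pointed to other rearrangements and mutations in it, for which there was no Sanger confirmation. WT is the standard laboratory strain. The source label of the YBT7 library names the strain but also reads wild type, so its title and genotype were followed. Counts of the edited genes were too low to check it, with linc-20 at 4 in WT and 0 in YBT7 and deg-1 at 1 and 3.

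Methylated H3K4 marks the promoters of active genes, and trimethylated H3K4 (H3K4me3) is low on the X chromosomes of early meiotic nuclei in wild-type worms. The complexes that write the mark join a catalytic SET-domain protein to a shared core of WDR-5, ASH-2 and RBBP-5. The mark is removed by amine oxidases of the LSD1 type, which act on mono- and dimethylated lysine, and by JmjC-domain enzymes, which can also remove trimethylation. In the worm germline, loss of the LSD1 homolog SPR-5 lets H3K4 dimethylation build up over generations and leads to sterility. The comparison of WT with YBT7 asked whether the loss of X chromosome continuity goes with altered transcript levels in the gonad, and the H3K4 genes bear on it because H3K4me3 was among the marks that the study stained on the X.

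The counts summed to 2873065 for WT and 4525439 for YBT7, and were divided by size factors of 0.816 and 1.22. A gene counted as measured when the mean of its normalized counts was above 5, and as called higher or lower when its absolute log2 fold (YBT7 over WT) also exceeded 1 plus 5 divided by the square root of this mean. Each strain has a single library, so differences have no replicate check, and intervals are exact conditional 95% intervals that cover the counting of reads only, so no p-value was computed. In bulk RNA, fewer cells of a type and less RNA per cell cannot be told apart. All 12 germline markers had counts in both libraries, and their summed level was 5880 CPM in WT and 4320 CPM in YBT7. Their interval of the fold lay below 1 for 8, among them rme-2 (0.605) and pgl-1 (0.772), and above 1 for puf-5 (1.399) and htp-3 (1.21). Markers of other tissues differed between the libraries. Called higher in YBT7 were 11 of 12 intestine markers (summed CPM from 949.9 to 10918, with ges-1 and elt-2 at 0 in WT), 6 of 7 muscle markers (237 to 1152), 4 of 6 cuticle markers (273 to 2744, with rol-6 at 0 in both) and 2 of 7 neuron markers (391 to 432). Of 8 sperm markers 3 were called lower, and their summed level was 43.2 CPM in WT and 6.85 CPM in YBT7, with spe-9 and msp-19 at 0 in both libraries and gsp-3 at 0 in YBT7.

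All 10 H3K4 genes were measured. Only lsd-1 was called, as lower in YBT7, and none was called higher, where 1.25% of the 8618 measured genes were called lower and 9.55% higher (10.8% in either direction). The log2 folds ran from -2.53 for lsd-1 to 0.021 for rbbp-5, with a median of -0.32 beside -0.030 over all measured genes and -0.11 over the 5324 genes with a mean above 50. For 8 of the 10 genes the log2 fold was below 0, a share that was 51.9% over measured genes and 62.1% over those with a mean above 50. The counting interval of the fold lay wholly below 1 for 7 of the 10 genes and wholly above 1 for none. Across measured genes these shares were 24.2% and 22.7%, and among genes with a mean above 50 they were 33.7% and 18.4%. None of the 12 germline markers was called, and their log2 folds ran from -0.72 to 0.48 with a median of -0.36. Scaled to those markers, the median of all measured genes went to 0.34, that of the 10 genes to 0.048, and the genes below 0 were lsd-1, set-16, amx-1 and rbr-2. The distance between the median of the 10 genes and that of all measured genes was -0.29 under either scaling. Scaling shifts every log2 fold by the same amount, so this distance could change only through which genes counted as measured. The part that the somatic and sperm RNA has in these values was not tested.

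**Figure D1:**
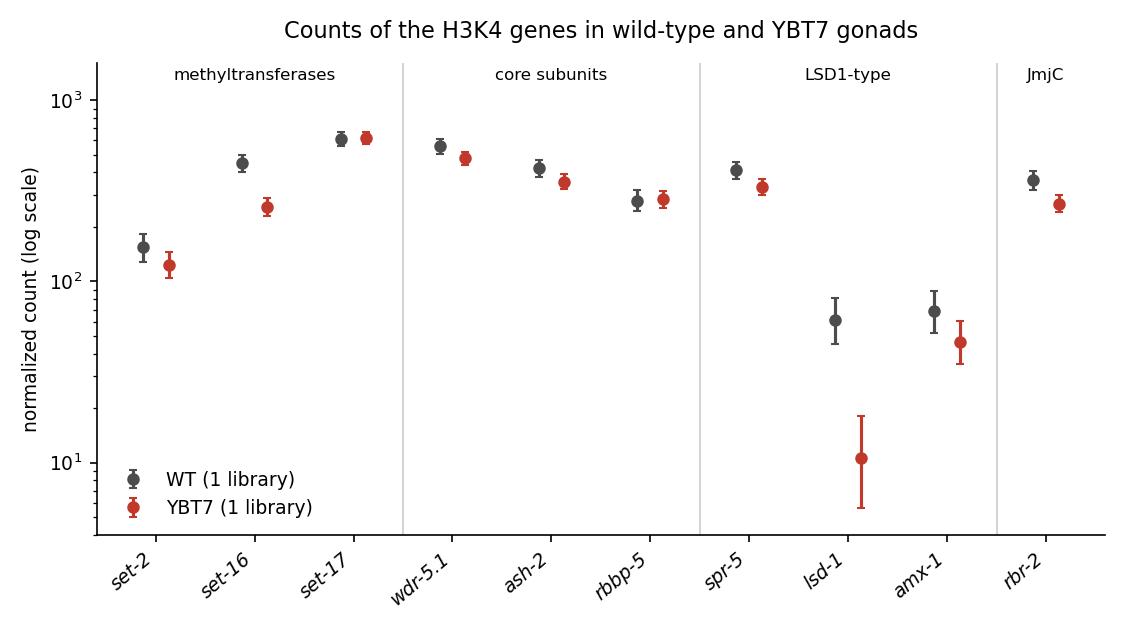
Normalized counts (log axis) of the 10 H3K4 genes in the WT library (grey) and the YBT7 library (red), with exact Poisson 95% intervals for the counting of reads. The pair for lsd-1, at 61.2 in WT and 10.6 in YBT7, is the widest apart. The intervals of the pairs for set-2, set-17, wdr-5.1, ash-2, rbbp-5 and amx-1 overlap. Of these, the interval of the fold still lay below 1 for wdr-5.1, ash-2 and amx-1, and held 1 for set-2, set-17 and rbbp-5.

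The gene that fell, lsd-1, encodes an LSD1-type demethylase and is the only X-linked gene among the 10. It lies on the internal segment (WBGene00011615, plus strand, X from 11948852 to 11951940 in WBcel235), 4.18 Mb from the left cut and 4.56 Mb from the right cut. The annotation gives it 1 transcript with 2410 exonic bases, none of which overlap an exon of another gene. The WT library held 50 counts of lsd-1 and the deeper YBT7 library held 13, where an unchanged level would have given 75. The Poisson intervals of these counts, 37.1 to 65.9 and 6.92 to 22.2, did not overlap. In CPM, the level was 17.4 in WT and 2.87 in YBT7. The normalized counts were 61.2 and 10.6, a fold of 0.173 (interval 0.0864 to 0.324), or 5.77-fold lower in YBT7. At this mean the rule asked for a 3.57-fold difference. The upper limit of the interval stands for a 3.09-fold fall, so counting error alone allows a true value short of the rule.

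Among the 10 genes lsd-1 stood apart in the size of its difference. Its whole interval lay below those of the other 9, the nearest of which was that of amx-1 with a lower limit of 0.461. This order does not depend on the scaling, which shifts all genes by the same factor. Of all measured genes, 78 (0.905%) had a lower log2 fold than lsd-1. These were 73 of 7555 autosomal genes, 3 of 529 genes of the internal segment, 1 of 520 of the linear segment and the mitochondrial gene ndfl-4.

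**Figure D2:**
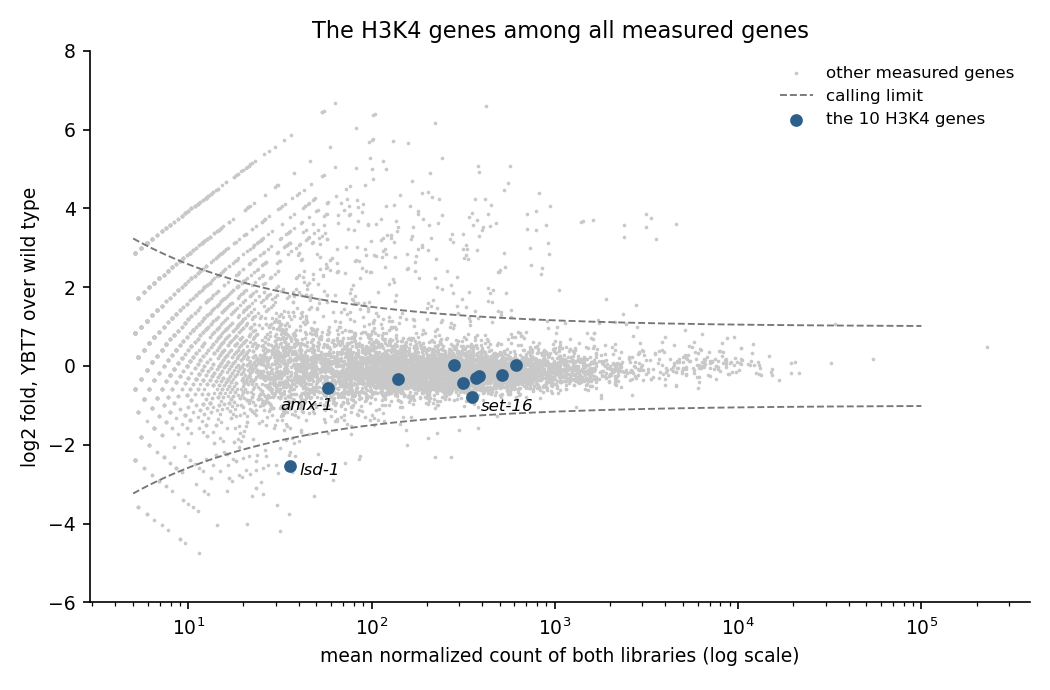
Log2 fold (YBT7 over WT) against the mean normalized count of both libraries (log axis) for measured genes with a count in both libraries, with the calling limits as dashed lines and the 10 H3K4 genes in blue. The point for lsd-1 lies below the lower limit at -2.53, and the other 9 lie between the limits, from -0.80 for set-16 to 0.021 for rbbp-5.

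The internal segment, on which lsd-1 lies, held genes called in both directions, and more of them higher than lower. Of its 529 measured genes 90 were called higher and 22 lower (4.16%), where 623 of 7555 autosomal genes were called higher and 83 lower (1.1%). On the linear segment, 107 of 520 measured genes were called higher and 2 lower. The interval of the fold lay wholly above 1 for 160 of the 529 genes, where the share over all measured genes was 22.7%. It lay wholly below 1 for 149 (28.2%, beside 24.2% over all measured genes). Over all 529 internal genes the median log2 fold was -0.10, with quartiles of -0.85 and 1.38, beside a median of -0.036 over autosomal genes. Among the 318 internal genes with a mean above 20, the median log2 fold was -0.43 and the quartiles were -0.99 and 0.77, and 1 gene of them was lower than lsd-1. With a mean above 50 the median was -0.42 for internal genes and -0.11 for autosomal genes. The measured genes that flank lsd-1 did not move one way. The nearest, nfya-1, which encodes a subunit of the NF-Y transcription factor, starts on the opposite strand with 2.02 kb between the genes. It had 32 counts in WT and 23 in YBT7, a fold of 0.479 (0.268 to 0.845), and was not called. The share of lsd-1 in the summed counts of this pair was 60.98% in WT (exact binomial interval 49.6 to 71.6%) and 36.1% in YBT7 (20.8 to 53.8%). These intervals overlap, which does not show that the shares are alike. On the other side sams-1, the gene of an S-adenosylmethionine synthetase, rose 4.22-fold (3.003 to 6.08), from 39 to 247 counts, at a distance of 14.02 kb. S-adenosylmethionine is the methyl donor of histone methyltransferases. Whether the rise of sams-1 has to do with them or with the higher somatic markers of the YBT7 library was not tested. Beyond it, C49F5.3 (fold 0.405) and C49F5.6 (0.388) had values below 1 without a call, and C49F5.7 rose 8.67-fold (3.81 to 24.3) from 6 to 78 counts. To the left, Y62H9A.4, Y62H9A.5 and Y62H9A.6 had folds of 2.201, 2.09 and 1.98 and were not called. Of these 8 neighbours, 2 were thus called higher and none lower.

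The X-linked genes whose normalized counts in both libraries were nearest to those of lsd-1 all lie on the internal segment. They were C25A11.10, with 48 counts in WT and 15 in YBT7 (distance 0.21 in log2 over the 2 libraries), F54F7.6, with 42 and 15 (0.33), and C17H11.2, with 44 and 10 (0.42). All 3 were called lower, which follows from their likeness to lsd-1. Of the 24 X-linked genes called lower, 22 lie on the internal segment, so the place of these 3 is no separate observation.

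**Figure D3:**
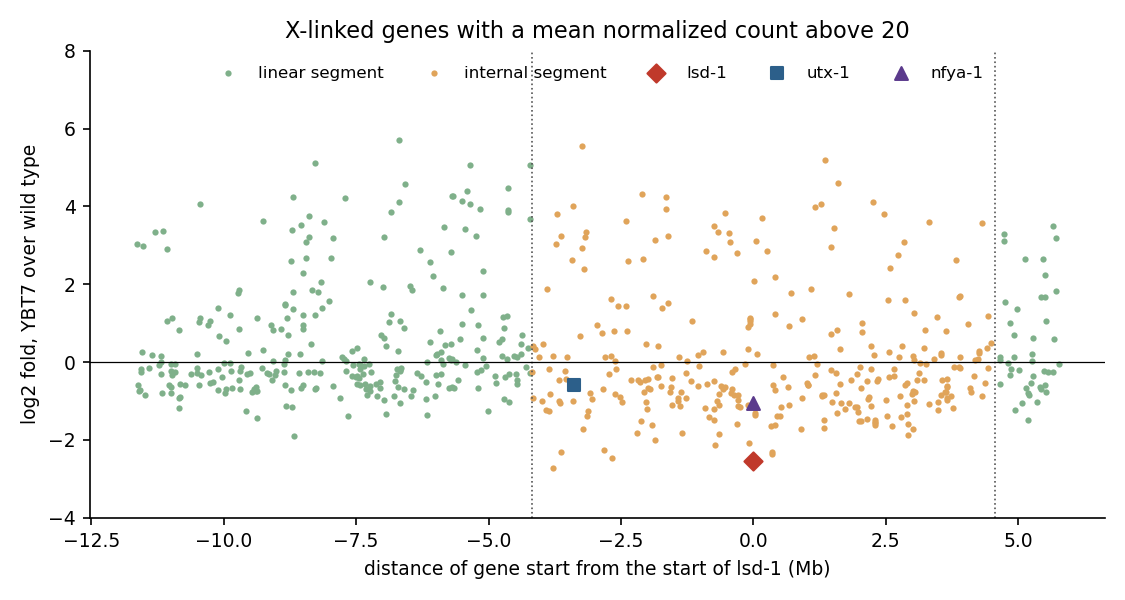
Log2 fold (YBT7 over WT) of genes on the X that had normalized counts averaging above 20, against the distance of each gene's start from that of lsd-1 in Mb. Dotted lines mark the cuts between the linear segment (green) and the internal segment (orange). At 0, lsd-1 (red diamond) lies at -2.53 and nfya-1 (purple triangle) at -1.06, and utx-1 (blue square), also on the internal segment, lies at -0.58.

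The other demethylase genes are autosomal, and none was called. The gene spr-5 (WBGene00005010, chromosome I from 13438066 to 13450218) encodes the LSD1 homolog of the germline named above. It had 335 counts in WT and 406 in YBT7, and a log2 fold of -0.31 (fold 0.808, interval 0.697 to 0.937). The gene amx-1 (WBGene00000137, chromosome III from 3822403 to 3826261) encodes another amine oxidase of the LSD1 family, with 56 counts in WT and 57 in YBT7. Its log2 fold of -0.56 had an interval of the fold from 0.461 to 0.999, and at its mean a 3.16-fold difference was needed for a call. The intervals of spr-5 and amx-1 overlap. The JmjC gene rbr-2 (WBGene00004319, chromosome IV from 10920107 to 10926797) is the worm member of the KDM5 family, whose enzymes remove H3K4 trimethylation. Its counts were 295 and 329, with a log2 fold of -0.43 (fold 0.744, 0.633 to 0.873). An exon of rbr-2 shares 98 bases with dnc-1 on the opposite strand, so a part of its reads may have been left out or assigned to either gene.

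Within the LSD1-type genes the makeup of the counts can be compared without any scaling between libraries. The share of lsd-1 in the summed counts of spr-5, lsd-1 and amx-1 was 11.3% of 441 in WT (exact binomial interval 8.53 to 14.7%) and 2.73% of 476 in YBT7 (1.46 to 4.63%), which do not overlap. The share of spr-5 was 75.96% in WT (71.7 to 79.9%) and 85.3% in YBT7 (81.8 to 88.4%). That of amx-1 was 12.7% in WT and 11.97% in YBT7, with overlapping intervals. The makeup of the LSD1-type counts thus differed in the shares of lsd-1 and spr-5, both taken from the same sum.

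The methyltransferase genes differed among themselves. The largest difference was that of set-16 (WBGene00011729, chromosome III from 13643918 to 13656785), which encodes the worm MLL-type enzyme. It had 366 counts in WT and 316 in the deeper YBT7 library, where an unchanged level would have given 549. The log2 fold was -0.80 (fold 0.576, interval 0.494 to 0.671), short of the 2.41-fold difference that the rule asked for at this mean. A value this low or lower was found for 6.96% of all measured genes and for 138 of the 5324 genes with a mean above 50 (2.59%). The gene set-2 (WBGene00004782, chromosome III from 4922446 to 4930204), which encodes the SET1-type enzyme that makes much of the H3K4me3 of the germline, had 126 and 151 counts and a log2 fold of -0.32 (fold 0.799, 0.626 to 1.02). The gene set-17 (WBGene00011887, chromosome II from 8939057 to 8940488), which encodes a SET-domain protein related to mammalian PRDM9, had 499 and 758 counts, near the 748.5 of an unchanged level. Its log2 fold was 0.018 (fold 1.01, 0.903 to 1.14), an interval that leaves out a 1.2-fold difference in either direction at this scaling, and it was 0.38 with the germline marker scaling.

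The interval of set-16 lay wholly below those of set-17, wdr-5.1, ash-2, rbbp-5 and spr-5, wholly above that of lsd-1, and overlapped those of set-2, amx-1 and rbr-2. In the summed counts of the methyltransferase genes, set-16 held 36.9% of 991 in WT (33.9 to 40.02%) and 25.8% of 1225 in YBT7 (23.4 to 28.3%). The share of set-17 was 50.4% in WT (47.2 to 53.5%) and 61.9% in YBT7 (59.1 to 64.6%), and that of set-2 was 12.7% and 12.3%. The shares of set-16 and set-17 thus stood apart between the libraries, while the intervals of set-2 overlapped. These shares are taken from the same sum, so a smaller share of one gene raises the others. The fold of set-17 itself was 1.01 (0.903 to 1.14). Between set-2 and set-16 alone, set-16 held 74.4% in WT (70.3 to 78.2%) and 67.7% in YBT7 (63.2 to 71.9%). Here too the intervals overlap, which does not show that the shares are alike.

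The core subunit genes had smaller differences. The gene wdr-5.1 (WBGene00006474, chromosome III from 3705265 to 3706785), which encodes a WD-repeat protein that holds the complexes together, had 455 counts in WT and 585 in YBT7, and a log2 fold of -0.22 (fold 0.857, 0.757 to 0.971). For ash-2 (WBGene00012458, chromosome II from 11980426 to 11988861), which encodes a subunit that stimulates the catalytic protein, the counts were 343 and 434 and the log2 fold -0.25 (fold 0.844, 0.730 to 0.975). An exon of ash-2 shares 27 bases with Y17G7B.3 on the same strand. For rbbp-5 (WBGene00017683, chromosome II from 6097830 to 6099663), the partner of ASH-2 in the core, the counts were 228 and 347 and the log2 fold 0.021 (fold 1.01, 0.856 to 1.20). An exon of rbbp-5 shares 45 bases with the antisense RNA gene anr-22. In the summed counts of the core, the shares of all 3 genes had overlapping intervals, with wdr-5.1 at 44.3% in WT and 42.8% in YBT7, ash-2 at 33.4% and 31.8%, and rbbp-5 at 22.2% and 25.4%.

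By role, the 6 methyltransferase and core subunit genes (writing genes) had normalized counts that summed to 2470 in WT against 2116 in YBT7. Their ratio was 0.856 (0.808 to 0.908), and set-17 held 611 of the sum in WT and 619 in YBT7. For the 4 demethylase genes the sums were 901 and 657, with a ratio of 0.729 (0.659 to 0.807). This interval ends just short of that of the writing genes. Without lsd-1 the ratio of the demethylase genes was 0.770 (0.694 to 0.854), whose interval overlaps that of the writing genes. In shares of the counts of all 10 genes, the demethylases held 26.7% of 2753 in WT (25.1 to 28.4%) and 23.7% of 3396 in YBT7 (22.3 to 25.2%), which overlap. The intervals of the ratios thus lay narrowly apart with lsd-1 among the demethylases and overlapped without it, while those of the shares overlapped. Ratios and shares rest on the same counts, so these are not separate results. Overlap of separate intervals does not show that the values are alike.

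**Figure D4:**
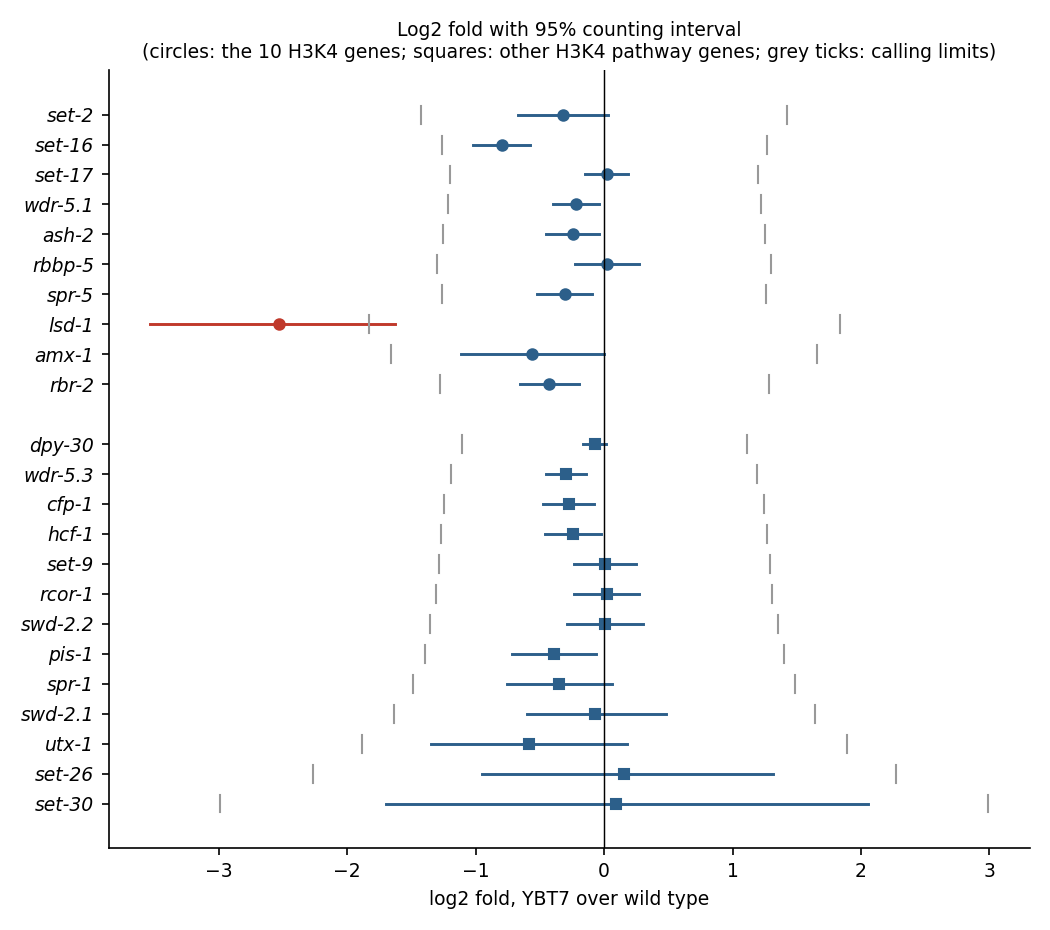
Log2 fold (YBT7 over WT) with exact conditional 95% counting intervals for the 10 H3K4 genes (circles) and for the measured genes of a wider H3K4 list (squares, by falling mean). Grey ticks mark the limits for a call at each gene's mean, and only lsd-1 (red) lies past its limit.

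Levels were compared between genes per kilobase of exon, although priming was from the poly(A) end of the RNA and counts therefore need not grow with length. In WT the order in CPM per kilobase was set-17 (177), wdr-5.1 (118), rbbp-5 (55.6), spr-5 (44.7), ash-2 (39.6), rbr-2 (20.1), set-16 (16.3), set-2 (8.01), amx-1 (7.38) and lsd-1 (7.22). The counting intervals of these levels overlapped between rbbp-5 and spr-5, spr-5 and ash-2, rbr-2 and set-16, and among set-2, amx-1 and lsd-1. In YBT7 the order of the 10 genes was the same, from set-17 at 170 to lsd-1 at 1.19. There, the intervals of neighbours overlapped between spr-5 and ash-2 and between set-2 and amx-1, and lsd-1 (0.635 to 2.04) lay apart from amx-1 (3.61 to 6.18).

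Of 14 other genes of H3K4 methylation, 13 were measured and none was called in either direction. These are subunits and partners of the complexes, readers of the mark, cofactors of the demethylases and the SET-domain gene set-30. The median log2 fold was -0.072, with values from -0.58 to 0.15, and the interval of the fold lay below 1 for 4 of the 13 and above 1 for none. Over all measured genes the interval lay below 1 for 24.2% and above 1 for 22.7%, and 10.8% were called. The gene with the highest mean, dpy-30, encodes a small subunit that the H3K4 complexes share with the dosage compensation complex. It had 1720 counts in WT and 2455 in YBT7, and its fold was 0.952 (0.894 to 1.01). The wdr-5.1 paralog wdr-5.3 had 624 and 763 counts (fold 0.815, 0.732 to 0.908). An exon of wdr-5.3 shares 77 bases with ZC302.3 on the opposite strand. For cfp-1, which encodes the CXXC protein that brings the SET-2 complex to promoters, the counts were 370 and 458 (0.825, 0.718 to 0.949), and for hcf-1, which encodes a host cell factor homolog, 306 and 388 (0.845, 0.726 to 0.985). Among the paralogs of wdr-5.1, the share of each gene in the summed counts kept overlapping intervals, with wdr-5.1 at 42.0% in WT and 43.2% in YBT7. The gene of the wider list that was not measured, wdr-5.2, had 4 counts in WT and 6 in YBT7.

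Besides lsd-1, 3 of these H3K4 genes are X-linked, and they were picked out for their chromosome. The gene utx-1, which encodes an H3K27 demethylase that works within the SET-16 complex, lies on the internal segment and had 31 counts in each library, a log2 fold of -0.58 (fold 0.667, 0.392 to 1.13). On the same segment wdr-5.2 had a fold of 1 (0.237 to 4.82), and set-30, on the linear segment, had 5 and 8 counts (1.07, 0.308 to 4.14). At such counts only differences of several fold could be seen. Of the CoREST genes, whose human homolog is a partner of LSD1, spr-1 had 96 and 113 counts (fold 0.785, 0.593 to 1.04) and rcor-1 215 and 327 (1.01, 0.851 to 1.21). An exon of spr-1 shares 152 bases with D1014.5 on the opposite strand. The genes set-9 and set-26, which encode near-identical readers of H3K4me3, had 243 and 366 counts and 12 and 20 counts, and reads that they share could be lost in the counting.

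Neighbouring pathways were described in the same way. Of 8 genes of H3K9 methylation and its readers, all measured, none was called, and the median log2 fold was -0.13. Of 8 genes of H3K27 and H3K36 methylation 7 were measured and none was called, with a median of -0.16. The share called over all measured genes was 10.8%. With 1 library per strain, whether the median of -0.32 of the 10 H3K4 genes differs from these was not tested.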

How the data were processed

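Gonads of WT and YBT7 were sequenced as 1 library each. For library preparation the authors used poly(T) primers holding a molecular identifier and linear amplification by in vitro transcription. Reads were trimmed with cutadapt (version 1.12), aligned with TopHat2 (2.1.1) to WBcel235 with the annotation of Ensembl release 36, and counted with HTSeq (0.6.0) at default parameters. The deposited raw counts per gene were used. The authors' normalized values, log2 folds (DESeq2, 1.12.4) and decisions were not used. Whether identifiers were collapsed is not given in the sources used here, so intervals may be too narrow.

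Size factors were medians of ratios over 10603 genes. Genes were called by the thresholds given in the study's methods. A floor of 3 counts is 1.04 CPM in WT and 0.663 CPM in YBT7. Exon lengths and overlaps were taken from release 115 of Ensembl, and positions from the deposited table. The segment borders are those of the methods. The members and lists were chosen from general knowledge, with earlier results of these data known. Named were all members, called genes of the wider list or else its 4 with the highest mean, the 4 measured genes on each side of lsd-1, and the 3 X-linked genes nearest to it in log2 normalized counts. X-linked genes, CoREST genes, set-9 and set-26 of the wider list were added after their values were seen. The rule was tested on simulated data. Computations used scipy 1.17.1, pandas 2.3.3, numpy 2.4.6 and matplotlib 3.10.9 under Python 3.11.15, and edgeR 4.0.16 under R 4.3.3 for the TMM and upper quartile alternatives.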

Additional observations from a re-analysis of the deposited data

How the results depend on the processing

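The alternatives were TMM, upper quartile, total count and autosomal scaling, no minimum mean or one of 10, a fixed 2-fold limit, a pseudocount of 1, and YBT7 counts thinned to the WT total. Scaling to the germline markers was added after the data were seen. Under all 10 settings lsd-1 was called lower, with a log2 fold from -2.60 to -2.16, no other gene of the 10 was called, and none of the wider list. Scaling to the germline markers moved the median of the 10 genes to 0.048 and that of the wider list to 0.29, and left 2 intervals of the 10 below 1 and 2 above 1. The log2 fold was then -0.43 for set-16 and 0.38 for set-17. Over all measured genes, 823 were called higher and 108 lower, against 1482 and 398 at the fixed 2-fold limit, 1644 and 223 with no minimum mean, and 1066 and 65 with germline marker scaling. Of the 10 genes, 7 had an interval below 1, against 6 with TMM or autosomal scaling, 5 with upper quartile scaling and 8 with total counts. All 10 log2 folds were below 0 with total counts or with thinned YBT7 counts. No paired analysis was possible because each strain has 1 library. Depth limits wdr-5.2, set-30, set-26, utx-1 and lsd-1 (13 counts in YBT7).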

Other observations

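The set and JmjC families, taken by symbol after the data were seen, had no called member, where 10.8% of all measured genes were called. They do not hold the LSD1-type genes. There are 44 set and JmjC genes in the table, of which 34 were measured. The X-linked genes of the families were at low counts in both libraries. The 12 X-linked genes had a median of 5.5 counts in WT (0 to 33) and 5.5 in YBT7 (0 to 39), and 3 of them had no count in either. The 32 autosomal genes had a median of 133.5 counts in WT (0 to 499) and 147.5 in YBT7 (0 to 758). Measured members had a median log2 fold of -0.42 on X (6 genes) and -0.18 on autosomes (28 genes). Among genes outside the lists above, set-5, a SET-domain gene, had 141 and 144 counts (fold 0.681, interval 0.536 to 0.865). The H4K20 methyltransferase gene set-1 had 322 and 498 counts (1.03, 0.894 to 1.19). The X-linked set-20 had 33 and 39 counts (0.788, 0.483 to 1.29). These values are descriptions of 1 library per strain, and no difference between the families was tested.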
